A study of Mus musculus with 6 samples.

Results

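The 10 genes described here encode secreted ligands of the transforming growth factor beta superfamily: the bone morphogenetic proteins Bmp2, Bmp4, Bmp5, Bmp6 and Bmp7, the TGF-beta isoforms Tgfb1, Tgfb2 and Tgfb3, and the activin and inhibin beta chains Inhba and Inhbb. They were taken by gene symbol from a table of 48587 genes, and all 10 were present in it. RNA bound to HA-tagged ribosomes of neonatal mouse kidney was counted in 6 libraries. The Foxp1-deficient group had 3 libraries from animals with Cdh16Cre, 2 floxed Foxp1 alleles and RiboTag, and carried the treatment label of a chronic acid load. The control group had 3 libraries from littermates with Cdh16Cre, 1 floxed and 1 unmodified Foxp1 allele and RiboTag, labelled as vehicle. Genotype and the labelled treatment coincide in all 6 libraries, so they cannot be told apart. The protocols describe no acid load, so whether the treatment label holds is not known. RiboTag is an allele whose ribosomal protein gains an HA tag once Cre has acted, and all 6 libraries were anti-HA pulldowns, labelled as kidney tubular cells. Cdh16 encodes a cadherin of kidney tubule epithelium, whose regulatory sequence drove Cre. Foxp1 encodes a forkhead transcription factor. The labels do not say whether the replicates were separate animals, and the p-values cover only library-to-library spread, which may be technical.

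Ligands of this family bind pairs of type I and type II serine/threonine kinase receptors at the cell surface. BMP receptors phosphorylate Smad1, Smad5 and Smad9 (also called Smad8), whereas TGF-beta and activin receptors phosphorylate Smad2 and Smad3. The activated Smads join Smad4 and enter the nucleus, where BMP signalling raises Id genes and both branches raise the inhibitory Smad7. In kidney development, Bmp7 maintains nephron progenitors and Bmp4, made by the mesenchyme around the Wolffian duct and ureter, restrains ectopic ureteric budding and promotes ureteral smooth muscle. Because ligands act outside the cell that makes them, noggin and chordin can hold BMPs away from receptors, and latent TGF-beta binding proteins store TGF-beta in the matrix.

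The ligand genes lie on several chromosomes (mm10 coordinates, as deposited). Bmp4 spans chr14:46383520-46390669 on the minus strand, Tgfb3 chr12:86056744-86079041 on the minus strand, Tgfb2 chr1:186622792-186705989 on the minus strand and Inhba chr13:16011851-16027211 on the plus strand. Their promoters were read from RefSeq (GRCm38.p6), as 250 bases before to 50 bases after the transcription start. That table held 7 of the 10 ligands, and Bmp2, Bmp7 and Tgfb3 were not among them. The promoters of Bmp4, Tgfb2 and Inhba are shown as 1 gene of each subfamily, Tgfb2 in place of Tgfb3, which the table lacked. Each runs 5′ to 3′ in the direction of transcription, and capitals mark every match to the motifs searched.
Bmp4 promoter, chr14:46390620-46390919, minus strand: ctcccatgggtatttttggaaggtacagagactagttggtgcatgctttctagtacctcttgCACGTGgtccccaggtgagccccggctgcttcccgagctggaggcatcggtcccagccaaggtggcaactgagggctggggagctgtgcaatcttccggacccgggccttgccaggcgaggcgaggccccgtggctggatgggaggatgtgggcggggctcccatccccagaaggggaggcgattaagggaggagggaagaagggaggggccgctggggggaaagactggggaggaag
Tgfb2 promoter, chr1:186705940-186706239, minus strand: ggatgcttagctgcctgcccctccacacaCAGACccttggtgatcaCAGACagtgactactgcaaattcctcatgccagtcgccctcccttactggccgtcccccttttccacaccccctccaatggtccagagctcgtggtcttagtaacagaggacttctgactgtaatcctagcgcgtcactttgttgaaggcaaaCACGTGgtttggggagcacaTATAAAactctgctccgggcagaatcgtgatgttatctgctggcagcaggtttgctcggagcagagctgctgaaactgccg
Inhba promoter, chr13:16011601-16011900, plus strand: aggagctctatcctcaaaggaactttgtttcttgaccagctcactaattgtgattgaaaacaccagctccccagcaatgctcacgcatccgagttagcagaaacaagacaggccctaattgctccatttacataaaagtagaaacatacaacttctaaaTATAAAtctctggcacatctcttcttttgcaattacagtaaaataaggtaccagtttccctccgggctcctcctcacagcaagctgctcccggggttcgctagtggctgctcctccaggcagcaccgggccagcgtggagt

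The motifs were searched on both strands and were counted also in all 32851 promoters of the same table. The forkhead motif TGTTTAC or TGTTTAT was in none of the 7 ligand promoters and in 7.97% of all promoters. The Smad-binding box GTCTG was in the promoters of Bmp5, Bmp6 and Tgfb2, and in 49.6% of all promoters. In Tgfb2 it stands in its reverse form, CAGAC, beginning at positions -221 and -204 from the start. The palindrome GTCTAGAC was in 0.213% of all promoters and GGCGCC in 11.9%, and neither was in a ligand promoter. The other 2 motifs were added after the sequences had been read. TATAAA was at position -31 in Tgfb2 and -91 in Inhba, and in 13.6% of all promoters. The E-box CACGTG was at position -188 in Bmp4, -127 in Bmp6 and -51 in Tgfb2, and in 7.15% of all promoters. GC content was 64% for Bmp4, 54.3% for Tgfb2 and 47.7% for Inhba, beside a median of 52.7% over all promoters. A match is a description of these letters, and no binding was measured.

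Library totals ran from 9710048 to 18958196 counts, and a gene with 0 counts may have had up to 3, which is 0.158 to 0.309 CPM by library (counts per fixed library total). Both libraries numbered 2 were the smallest, with 14285 genes detected in Foxp1-deficient library 2 and 13885 in control 2, against at least 18241 in every other library. Foxp1 averaged 25.0 ± 12.2 CPM in Foxp1-deficient libraries and 38.5 ± 9.27 CPM in controls (SD, n = 3 each, TMM-scaled), with a log2 fold change of -0.62 (SE 0.49, adjusted p = 0.9998 in the quasi-likelihood test of edgeR). This is a partial check of the label, because counts over the whole gene include exons outside the deletion and any cell in which Cre did not act. The controls also carried Cdh16Cre and 1 floxed Foxp1 allele, so the contrast is of 2 floxed alleles against 1. Cdh16, the gene of the Cre driver, had 0.297, 1.96 and 48.5 CPM in Foxp1-deficient libraries 1, 2 and 3, and 0.350, 9.23 and 48.6 CPM in controls 1, 2 and 3. The 10 tubule markers summed to 60.9, 104 and 608 CPM in Foxp1-deficient libraries 1, 2 and 3, and to 36.1, 54.4 and 478 CPM in controls 1, 2 and 3. Lrp2 alone had 55.2, 97.4 and 203 CPM of these in Foxp1-deficient libraries 1, 2 and 3, and 34.9, 27.4 and 115 CPM in controls 1, 2 and 3. Of the 10 tubule markers 1, 6 and 0 were at 0 in Foxp1-deficient libraries 1, 2 and 3, and 4, 4 and 0 in controls 1, 2 and 3, while the stromal list of 10 markers summed to between 3436 and 22896 CPM in all 6 libraries. In such bulk libraries, fewer cells of a type and less RNA per cell cannot be told apart.

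Bmp4 was the BMP gene of highest level, and its CPM by library total did not overlap between groups. It had 62.4, 88.1 and 64.8 CPM in Foxp1-deficient libraries 1, 2 and 3, against 92.8, 148 and 107 CPM in controls 1, 2 and 3. All 3 Foxp1-deficient libraries were below the lowest control, and the difference in log2(CPM + 0.5) was -0.57, -0.75 and -0.71 in the equally numbered pairs. Among 13887 genes averaging at least 1 CPM, 2.07% were likewise apart with the Foxp1-deficient libraries lower, and 16.4% were lower in all 3 pairs. With the TMM scaling of the test the groups of Bmp4 overlapped, with 59.3, 109 and 56.3 CPM in Foxp1-deficient libraries 1, 2 and 3, against 88.0, 176 and 94.3 CPM in controls 1, 2 and 3. Foxp1-deficient library 2 then lay above controls 1 and 3, and the Foxp1-deficient library remained the lower one in all 3 pairs. The log2 fold change of Bmp4 was -0.67 (SE 0.45, 95% interval -1.74 to 0.39) and did not pass (unadjusted p = 0.1804 and adjusted p = 0.9998 in edgeR). Blocking by replicate number gave -0.67 (SE 0.13, 95% interval -1.001 to -0.33), with an unadjusted p of 0.00360 and an adjusted p of 0.587 in edgeR. Exons of Bmp4 share 89 bases with the opposite-strand gene Gm15217, which had at most 30 counts in any library, against at least 855 for Bmp4.

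**Figure D1:**
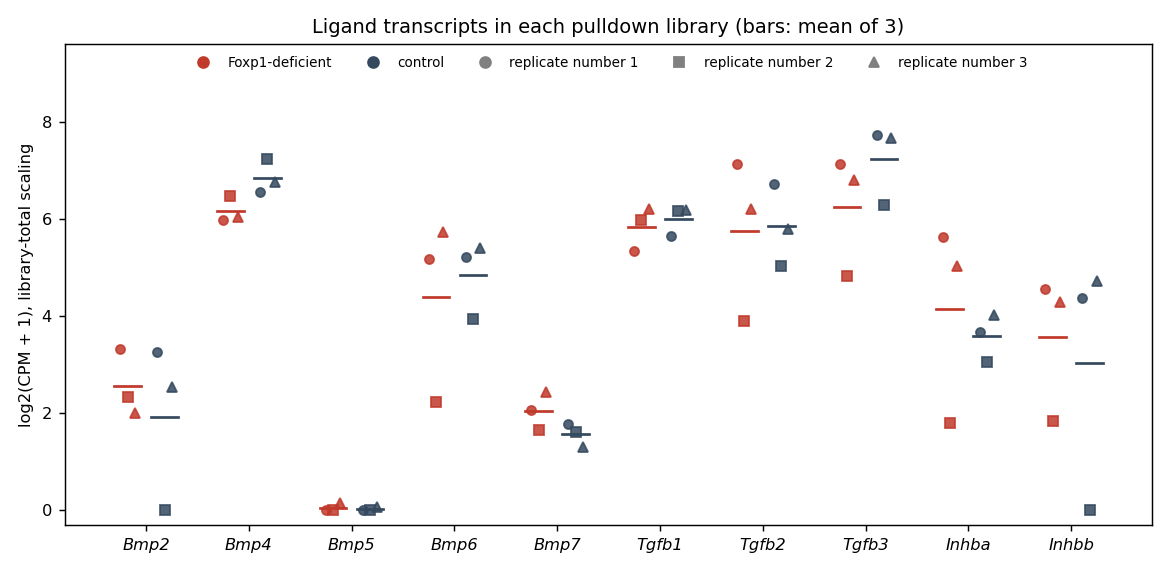
Level of each of the 10 ligands as log2(CPM + 1), scaled to library totals, with 1 point per library, the 3 Foxp1-deficient libraries left of the 3 controls, and a bar at each mean. On this scale the points of Bmp4 are apart between groups, whereas with TMM scaling those of Bmp4 overlap and those of Bmp7 are apart. The library numbered 2 is the lowest of each group for Tgfb2, Tgfb3 and Bmp6.

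The other BMP genes overlapped between groups by library total, and none passed the test. Bmp2, an osteogenic BMP close to Bmp4 in sequence, had 8.98, 4.02 and 3.01 CPM in Foxp1-deficient libraries 1, 2 and 3, and 8.54, 0 and 4.78 CPM in controls 1, 2 and 3. The count of 0 in control 2 allows up to 0.266 CPM, and its log2 fold change was 0.38 with a 95% interval of -2.96 to 3.72. Bmp6, known as an iron-sensing signal of liver endothelium, had 35.0, 3.71 and 52.4 CPM in Foxp1-deficient libraries 1, 2 and 3, and 36.1, 14.3 and 41.0 CPM in controls 1, 2 and 3. Its lowest value in each group was that of the library numbered 2, and the log2 fold change was -0.07 (95% interval -1.87 to 1.74). Bmp7 had 3.21, 2.16 and 4.38 CPM in Foxp1-deficient libraries 1, 2 and 3, and 2.45, 2.04 and 1.48 CPM in controls 1, 2 and 3. It was higher in the Foxp1-deficient library of all 3 pairs, as were 16.7% of the 13887 genes, and its groups overlapped by library total. With TMM scaling they were apart, with 3.05, 2.68 and 3.80 CPM in Foxp1-deficient libraries 1, 2 and 3, against 2.33, 2.42 and 1.31 CPM in controls 1, 2 and 3. On that scale 2.67% of 13558 tested genes averaging at least 1 CPM were apart with the Foxp1-deficient libraries higher, and 2.13% with them lower. The log2 fold change of Bmp7 was 0.66 (95% interval -1.33 to 2.65). Bmp7 is known from nephron progenitors and the ureteric bud, and the list of 5 nephron progenitor markers summed to between 4.9 and 12.9 CPM in Foxp1-deficient libraries and between 5.9 and 15.3 CPM in controls. Bmp5 had 0, 0 and 2 counts in Foxp1-deficient libraries 1, 2 and 3, and 0, 0 and 1 count in controls 1, 2 and 3, below the floor in every library, and was not tested.

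Tgfb3 was the TGF-beta isoform of highest level per exon length in every library except Foxp1-deficient library 2, where Tgfb1 was higher. It had 138, 27.3 and 110.7 CPM in Foxp1-deficient libraries 1, 2 and 3, against 212, 77.0 and 202 CPM in controls 1, 2 and 3. Every Foxp1-deficient library was below its equally numbered control, by -0.61, -1.48 and -0.87 in log2(CPM + 0.5), but the groups overlapped because control 2 lay below Foxp1-deficient libraries 1 and 3. Of the 13887 genes averaging at least 1 CPM, 16.4% were likewise lower in all 3 pairs. Tgfb3 averaged 87.1 ± 49.5 CPM in Foxp1-deficient libraries and 157 ± 58.1 CPM in controls (SD, n = 3 each, TMM-scaled). The log2 fold change was -0.85 (SE 0.57, 95% interval -2.19 to 0.50, unadjusted p = 0.181, adjusted p = 0.9998, edgeR). With the replicate block it was -0.97 (SE 0.20, 95% interval -1.48 to -0.46), with an unadjusted p of 0.00464 and an adjusted p of 0.707 in edgeR.

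Tgfb2 and Tgfb1 had fold changes nearer to 0. Tgfb2, whose loss in mice gives urogenital and heart defects, had 140.01, 13.8 and 73.1 CPM in Foxp1-deficient libraries 1, 2 and 3, and 104.5, 31.5 and 54.6 CPM in controls 1, 2 and 3. The Foxp1-deficient library was the higher one in pairs 1 and 3 and the lower one in pair 2, and the log2 fold change was 0.21 (95% interval -1.52 to 1.94), or -0.061 with the replicate block (95% interval -0.98 to 0.85). Tgfb1, the isoform of immune and fibrotic signalling, had 39.4, 62.4 and 72.6 CPM in Foxp1-deficient libraries 1, 2 and 3, and 49.4, 70.1 and 71.9 CPM in controls 1, 2 and 3. Its range was the narrowest of the TGF-beta isoforms, and the log2 fold change was -0.12 (95% interval -1.10 to 0.85). By TMM scaling the Foxp1-deficient library had less Tgfb1 in all 3 pairs, and by library total in pairs 1 and 2. Per exon length, the ratio of Tgfb2 to Tgfb3 transcripts was 0.591, 0.296 and 0.386 in Foxp1-deficient libraries 1, 2 and 3, against 0.288, 0.239 and 0.158 in controls 1, 2 and 3. The 3 Foxp1-deficient ratios were all above the highest control ratio. The choice of this ratio was made after values had been seen, and it was not tested.

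The activin chains diverged between the libraries of a group. Inhba, whose product forms activin A as a dimer, had 48.3, 2.47 and 31.8 CPM in Foxp1-deficient libraries 1, 2 and 3, and 11.7, 7.28 and 15.3 CPM in controls 1, 2 and 3. Foxp1-deficient libraries 1 and 3 were above all 3 controls, and Foxp1-deficient library 2 was below them. The log2 fold change was 1.21 (SE 0.84, 95% interval -0.77 to 3.19, unadjusted p = 0.194, adjusted p = 0.9998 in edgeR) and 0.67 with the replicate block (adjusted p = 0.868). With both libraries numbered 2 left out it was 1.58 (unadjusted p = 0.00629, adjusted p = 0.99998, edgeR) without a block and 1.54 with one (adjusted p = 0.135, edgeR on 4 libraries, where 0.19% of 15303 genes were called). Inhbb, whose product forms activin B, had 22.5, 2.57 and 18.6 CPM in Foxp1-deficient libraries 1, 2 and 3, and 19.7, 0 and 25.4 CPM in controls 1, 2 and 3. Both libraries numbered 2 were low for Inhbb, and its log2 fold change was -0.01 (95% interval -3.43 to 3.40) without a block and 0.75 (95% interval -1.88 to 3.38) with it. The ratio of Inhba to Inhbb per exon length was 4.61, 2.06 and 3.68 in Foxp1-deficient libraries 1, 2 and 3, and 1.28 and 1.29 in controls 1 and 3, with no ratio in control 2, where Inhbb had 0 counts. The ratio in Foxp1-deficient library 2 rests on 24 counts of Inhba and 25 of Inhbb. This ratio was not planned in advance and was not tested. Ratios of Tgfb3 to Tgfb1, Bmp4 to Bmp6 and Bmp4 to Tgfb3 overlapped between groups.

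**Figure D2:**
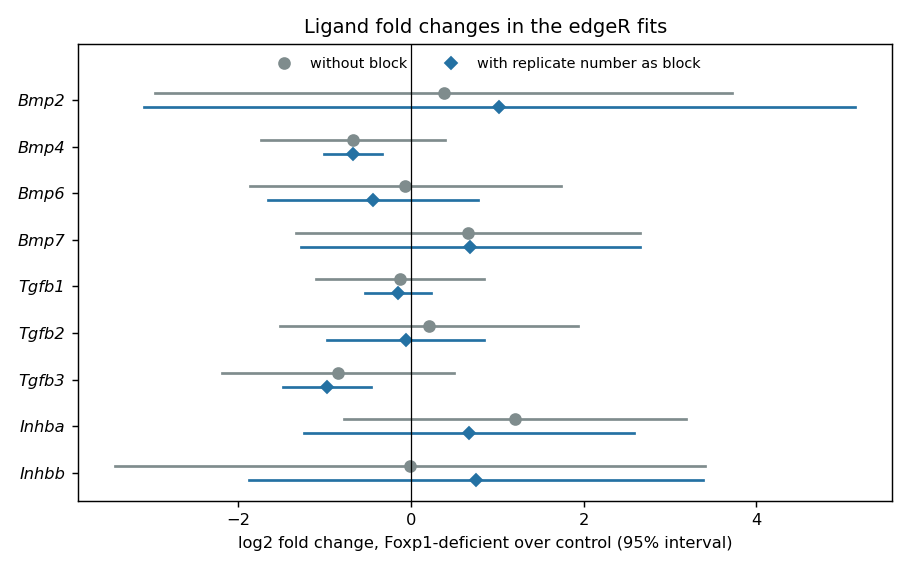
Log2 fold change of Foxp1-deficient over control for the 9 ligands tested, with 95% intervals, from edgeR without a block (grey circles) and with the replicate number as a block (blue diamonds). The intervals of Bmp4 and Tgfb3 leave out 0 with the block (-1.001 to -0.33 and -1.48 to -0.46) and include it without one.

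Of the 9 ligands tested, 0 passed at an adjusted p under 0.05 with edgeR, as did 0% of the 14311 genes, and 4 log2 fold changes were above 0 and 5 below. At an unadjusted p under 0.05, 0 ligands and 0.692% of all genes were called without a block, and with it Bmp4 and Tgfb3, 2 of the 9 ligands, and 5.21% of all genes. The median log2 fold change of the 9 ligands was -0.01, beside 0.03 over all genes tested, and -0.061 with the block. DESeq2 with the replicate block called Bmp4 (log2 fold change -0.67, SE 0.19, adjusted p = 0.0470) and Tgfb3 (-0.97, SE 0.23, adjusted p = 0.00425), both lower, where it called 1.31% of 12799 genes. DESeq2 without the block called 0 ligands and 0.0238% of 25186 genes. limma-voom with the block called neither (adjusted p = 0.284 for Bmp4 and 0.269 for Tgfb3) and 0.028% of all genes. Leaving out 1 library moved the log2 fold change of Bmp4 from -1.04 without Foxp1-deficient library 2 to -0.30 without control 2. For Tgfb3 it ran from -1.28 without Foxp1-deficient library 1 to -0.46 without Foxp1-deficient library 2, and for Inhba from 0.47 without Foxp1-deficient library 1 to 1.74 without Foxp1-deficient library 2.

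Most ligands varied more with the replicate number than with genotype. In the edgeR fit with both terms, Bmp4 (adjusted p = 0.0178), Tgfb3 (0.0232), Tgfb1 (0.0396) and Tgfb2 (0.0475) differed between replicate numbers, 4 of 9 ligands, where 29.7% of all genes did. With 1 library left out, the count of ligands moved with that of all genes. Without control 2 it was 8 ligands, beside 61.5% of genes, and without Foxp1-deficient library 1 it was 1, beside 15.7%. With library totals in place of TMM the 2 counts moved apart. Only 2 ligands, Tgfb2 and Tgfb3, were then called, although the share of all genes rose to 34.1%. Without both libraries numbered 2, the ligands called were 2, Tgfb1 and Tgfb2, where 19.1% of genes were. Bmp6 (adjusted p = 0.101), Inhbb (0.138), Inhba (0.290), Bmp2 (0.591) and Bmp7 (0.984) did not pass the edgeR test. Replicate number took up 89.6% of the variance of log2(CPM + 1) for Tgfb1, 88.4% for Tgfb2, 72.3% for Tgfb3 and 66.1% for Inhba. Genotype took up 5.93%, 0.218%, 24.4% and 5.18% for the same genes. On this scale of library totals, Bmp4 and Bmp7 were the exceptions among the ligands tested. They had 63.98% and 46.4% for genotype and 35.2% and 12.9% for replicate number. The shares were not taken with TMM scaling, which the test above used. With TMM scaling, Foxp1-deficient library 2 had 109 CPM of Bmp4, above controls 1 and 3 with 88.0 and 94.3 CPM, so the exception of Bmp4 may not hold there. The libraries numbered 2 were the highest of their group for Bmp4 and the lowest of their group for Tgfb2, Tgfb3, Bmp6, Inhba and Inhbb. Any grouping of 6 libraries takes up some variance, so these shares do not by themselves show an effect. Replicate number has more levels than genotype and takes up a larger share by that alone, so the 2 shares are not on equal terms.

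**Figure D3:**
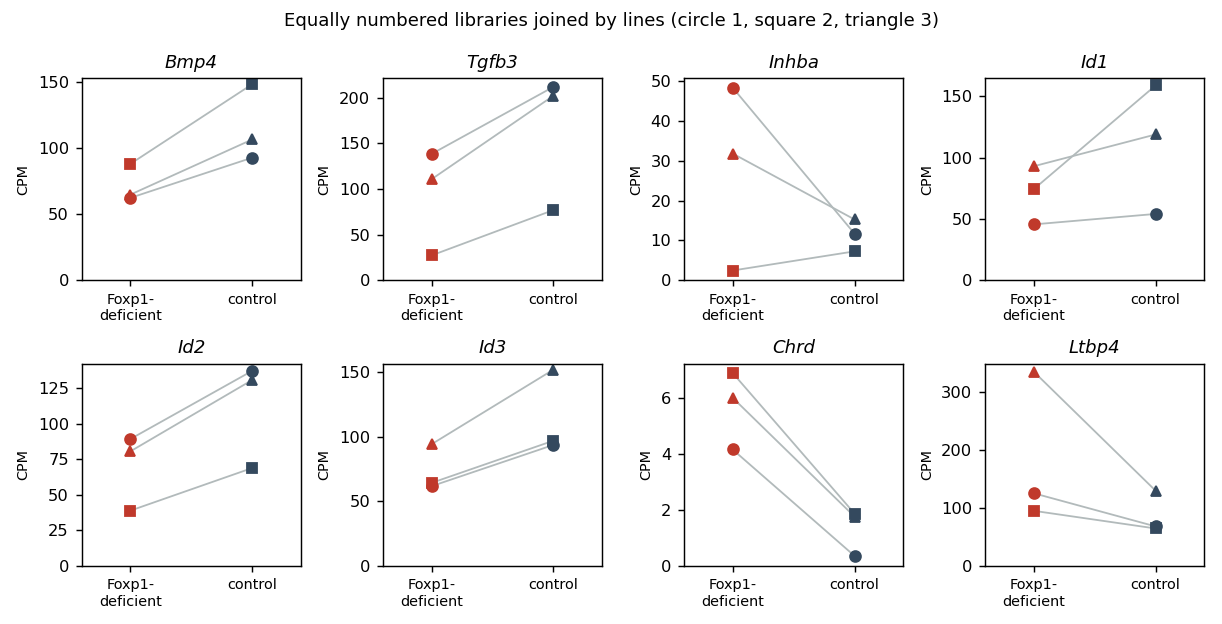
CPM, scaled to library totals, of Bmp4, Tgfb3, Inhba, the BMP-responsive genes Id1, Id2 and Id3, the BMP inhibitor Chrd and the latent TGF-beta binding protein gene Ltbp4, with equally numbered libraries joined and the Foxp1-deficient library on the left of each line. Bmp4, Tgfb3 and the 3 Id genes are lower in the Foxp1-deficient library of all 3 pairs, Chrd and Ltbp4 are higher in all 3, and Inhba differs in direction in pair 2.

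Levels of different ligands were compared as TPM (counts divided by exon length and scaled to an equal sum per library). By geometric mean over the 6 libraries with 0.1 TPM added, Bmp4 came first with 76.7 TPM, before Tgfb3 with 59.3, Tgfb1 with 22.4, Bmp6 with 18.2, Tgfb2 with 17.9 and Inhba with 12.7 TPM. Inhbb with 3.36, Bmp2 with 1.71, Bmp7 with 1.18 and Bmp5 with 0.0137 TPM followed. None of the 9 neighbouring pairs passed at an adjusted p under 0.05 in an exact two-sided sign-flip permutation test over the 6 libraries. The smallest p of this test is 0.03125, which after adjustment over 9 pairs passes only if most of the pairs reach it together. The test could thus hardly call a single pair, and the lack of calls does not show equal levels. The lowest p were those of Inhba above Inhbb and of Bmp7 above Bmp5, each in 6 of 6 libraries (exact p = 0.03125, adjusted p = 0.141), and Tgfb3 was above Tgfb1 in 5 of 6 libraries (exact p = 0.0625, adjusted p = 0.1875). Bmp4 and Tgfb3 did not differ beyond their spread (exact p = 0.53125, adjusted p = 0.723), nor did Bmp6 and Tgfb2 (exact p = 0.906). By counts without regard to length, without the libraries numbered 2, or without Foxp1-deficient library 2 alone, Tgfb3 came first.

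In single libraries, Bmp4 had 75.4, 41.5 and 72.9 TPM in Foxp1-deficient libraries 1, 2 and 3, and 96.9, 84.9 and 108 TPM in controls 1, 2 and 3. Tgfb3 had 110, 8.46 and 81.8 TPM in Foxp1-deficient libraries 1, 2 and 3, and 145, 28.9 and 135 TPM in controls 1, 2 and 3. Tgfb3 was thus above Bmp4 in both groups except in the libraries numbered 2. Genes under 300 bases took up 50.38% of the length-scaled total in Foxp1-deficient library 2 and 39.38% in control 2, against 16.09% to 24.22% in the other libraries, which lowers every other gene's TPM there.

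Shares of the summed ligand TPM do not carry that scaling. The TGF-beta isoforms made up 49.1%, 33.8% and 44.9% of ligand TPM in Foxp1-deficient libraries 1, 2 and 3, and 56.3%, 35.4% and 50.9% in controls 1, 2 and 3. The BMP genes made up 30.9%, 63.4% and 39.7% in Foxp1-deficient libraries 1, 2 and 3, and 37.2%, 61.5% and 40.7% in controls 1, 2 and 3. The share of BMPs was highest in both libraries numbered 2, where Bmp4 alone took 58.7% in the Foxp1-deficient library and 56.1% in the control. The activin chains made up 20.0%, 2.75% and 15.4% in Foxp1-deficient libraries 1, 2 and 3, and 6.55%, 3.09% and 8.35% in controls 1, 2 and 3. Activin chains thus had a larger share in Foxp1-deficient libraries 1 and 3 than in any control, and the smallest share in Foxp1-deficient library 2.

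**Figure D4:**
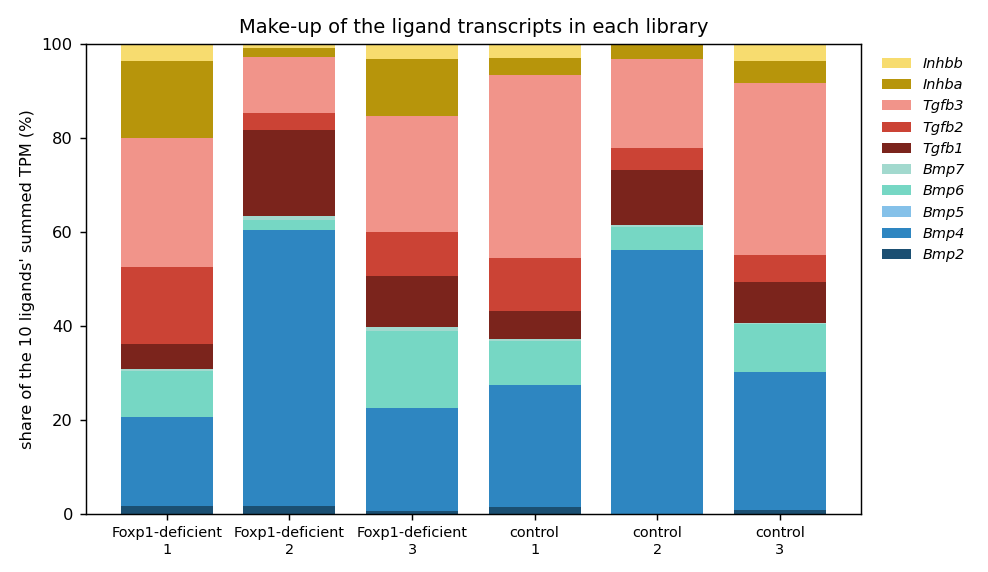
Share of the summed TPM of the 10 ligands taken by each ligand, in percent, as stacked bars for the 3 Foxp1-deficient libraries on the left and the 3 controls on the right. Bmp4 takes over 56% in both libraries numbered 2 and at most 29.3% elsewhere, and Inhba takes 16.4% and 12.1% in Foxp1-deficient libraries 1 and 3, against at most 4.71% in the controls.

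The genes whose profile was most like that of each ligand were sought by Pearson correlation of log2(TMM CPM + 1) over the 6 libraries, among 9012 genes averaging at least 10 CPM. For Bmp4 they were Foxs1 (r = 0.990) and Lsp1 (r = 0.989), and for Tgfb3 Cetn3 (r = 0.990) and Crispld2 (r = 0.985). For Inhba they were Stx2 (r = 0.990) and Tsku (r = 0.980), and for Inhbb Anapc10 and Gtf3a (r = 0.998 each). For Tgfb2 they were Yes1 (r = 0.994) and Igf2bp3 (r = 0.993), for Tgfb1 Uba7 (r = 0.996) and Zfp36 (r = 0.995), and for Bmp6 Prdm11 (r = 0.999) and Apbb2 (r = 0.997). These values describe 6 libraries that share the split between the libraries numbered 2 and the others, and the top of 9012 genes is high by selection. Bmp2, Bmp5 and Bmp7 averaged under 5 CPM and were not searched.

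The tested BMP-responsive genes had log2 fold changes below 0, whereas the BMP genes themselves went both ways. Bmp4 (-0.67) and Bmp6 (-0.07) were below 0, and Bmp2 (0.38) and Bmp7 (0.66) above. Of 12 BMP-responsive genes on the list 10 were tested, and 0 were higher and 10 lower in the Foxp1-deficient group. Their median log2 fold change was -0.58 beside 0.03 over all genes, where 46.4% of genes were lower. None passed the edgeR test, and Smad6, Smad7, Smad9 and Bambi stand also on the list of Smads and regulators. The list was chosen with earlier results of these data known. Several values were small or wide, such as Smad6 at -0.08 (SE 0.35), Smad9 at -0.53 (SE 1.88) and Gata2 at -1.32 (SE 1.80). Id2, an inhibitor of basic helix-loop-helix factors, had 89.3, 38.8 and 80.6 CPM in Foxp1-deficient libraries 1, 2 and 3, against 137, 68.9 and 131 CPM in controls 1, 2 and 3. Id3 of the same family had 61.7, 64.3 and 94.3 CPM in Foxp1-deficient libraries 1, 2 and 3, against 93.8, 97.0 and 152 CPM in controls 1, 2 and 3. Id1 had 45.6, 74.3 and 92.9 CPM in Foxp1-deficient libraries 1, 2 and 3, against 54.1, 159 and 119 CPM in controls 1, 2 and 3. Id1, Id2 and Id3 were each lower in all 3 pairs with groups that overlapped by library total, and those of Id3 were apart with TMM scaling. On the TMM scale 2.13% of 13558 tested genes averaging at least 1 CPM were apart with the Foxp1-deficient libraries lower. By library total, 4 of the 9 listed genes averaging at least 1 CPM were lower in all 3 pairs, as were 16.4% of all such genes. Beside the Id genes this was Smad7, which with TMM scaling was lower in 2 pairs and higher in 1. Id4 and Atoh8 were higher in pair 2, and Smad6 and Bambi in pair 3. The log2 fold change was -0.69 for Id2 (SE 0.38), -0.62 for Id3 (SE 0.35), -0.67 for Id1 (SE 0.55) and -1.25 for Id4 (SE 1.51). With the replicate block Id2 was at -0.70 (unadjusted p = 0.0029, adjusted p = 0.546) and Id3 at -0.62 (unadjusted p = 0.0052, adjusted p = 0.741) in edgeR, and DESeq2 with the block called Id2. All tested genes of the list were lower in 14 of 19 settings, and its median stayed below 0 in all 19, from -0.72 to -0.31. The exceptions included the fits without Foxp1-deficient library 2, with 3 of 11 higher, and without control 1, with 2 of 11 higher.

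Genes of extracellular inhibitors and binding proteins mostly had log2 fold changes above 0. Of 18 on the list 12 were tested, and 11 were higher and 1 lower in the Foxp1-deficient group. Their median log2 fold change was 0.33, where 53.6% of all genes were higher. None passed the edgeR test, and some values were near 0, such as Crim1 at 0.07 (SE 0.64). By library total, 6 of the 13 listed genes averaging at least 1 CPM were higher in all 3 pairs, as were 16.7% of all such genes. Chrd, which encodes chordin and binds BMP2, BMP4 and BMP7, had 4.16, 6.90 and 6.01 CPM in Foxp1-deficient libraries 1, 2 and 3, against 0.350, 1.86 and 1.76 CPM in controls 1, 2 and 3. The groups of Chrd were apart, as they were with the Foxp1-deficient libraries higher for 2.1% of genes, and its log2 fold change was 2.11 (SE 0.97, unadjusted p = 0.0641, adjusted p = 0.9998, edgeR). Nog, which encodes noggin, had 19.0, 10.6 and 4.96 CPM in Foxp1-deficient libraries 1, 2 and 3, and 4.83, 9.05 and 3.52 CPM in controls 1, 2 and 3. Nog was higher in all 3 pairs with overlapping groups, at a log2 fold change of 0.95 (SE 0.75), and Bmper, a BMP-binding modulator, was at 0.30 (SE 0.39). Bmper was higher only in pair 1, and lower in pair 2 (35.8 against 39.0 CPM) and pair 3 (50.0 against 58.1 CPM). The median of the list stayed above 0 in all 19 settings, from 0.11 to 0.57, but without control 2 only 8 of 13 were higher and 5 lower, and without Foxp1-deficient library 1 only 9 of 13 were higher and 4 lower.

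Among genes of latency and activation, 8 of 14 tested were higher and 6 lower (median log2 fold change 0.12), and with the replicate block 6 were higher and 8 lower (median -0.18). Ltbp4, a latent TGF-beta binding protein gene of elastic fibres, had 125, 95.1 and 336 CPM in Foxp1-deficient libraries 1, 2 and 3, against 68.0, 64.4 and 130 CPM in controls 1, 2 and 3. It was higher in all 3 pairs, as were 16.7% of 13887 genes averaging at least 1 CPM. Its groups overlapped by library total and were apart with TMM scaling, where 2.67% of 13558 tested genes were apart with the Foxp1-deficient libraries higher. The log2 fold change of Ltbp4 was 1.05 (SE 0.49, unadjusted p = 0.0702, edgeR), and 0.96 with the replicate block (SE 0.18, adjusted p = 0.587, edgeR), and DESeq2 with the block called it. Ltbp1 was at 0.55, Bmp1, a procollagen protease that also cleaves chordin, at 0.29, and Lrrc32, which anchors latent TGF-beta on cell surfaces, at -0.57 on the log2 scale.

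Receptor genes went both ways, with 9 of 14 tested higher and 5 lower (median log2 fold change 0.12), or 7 and 7 with the replicate block. Tgfbr2, the type II TGF-beta receptor gene, had 80.3, 26.4 and 123 CPM in Foxp1-deficient libraries 1, 2 and 3, against 37.0, 24.5 and 72.4 CPM in controls 1, 2 and 3, higher in all 3 pairs (log2 fold change 0.75, SE 0.54). Eng, an endothelial co-receptor gene, was lower in all 3 pairs (log2 fold change -0.60, SE 0.55), and Acvrl1 and Acvr2b were at 0.30 and 0.35. Among 13887 genes averaging at least 1 CPM, 16.7% were higher and 16.4% lower in all 3 pairs. Beside Eng, 2 of the 6 endothelial markers were higher and 4 lower (median -0.98 on the log2 scale). Of 14 Smads and intracellular regulators, 6 were higher and 8 lower (median -0.03), and the 4 of lowest p lay between -0.30 for Smad7 and 0.29 for Smurf1, with Bambi at -0.22 and Smurf2 at -0.27. Of 12 TGF-beta-responsive genes, 5 were higher and 7 lower (median -0.03). Tgfbi was at -0.70 (SE 0.62), Postn at 0.60 (SE 0.88) and Pmepa1 at 0.26 (SE 0.49). Of 23 other superfamily ligands 9 were tested, 5 higher and 4 lower. Bmp10, known from the heart, had 6.18, 0 and 0.738 CPM in Foxp1-deficient libraries 1, 2 and 3, against 21.5, 6.66 and 9.01 CPM in controls 1, 2 and 3. Its groups were apart, as they were with the Foxp1-deficient libraries lower for 2.07% of 13887 genes averaging at least 1 CPM. The log2 fold change of Bmp10 was -2.45 (SE 1.42), and DESeq2 with the block called it, where 1.31% of 12799 genes were called. Lefty1 was at 1.68 (SE 1.02), Gdf3 at 2.09 (SE 2.23) and Bmp3 at -0.71 (SE 0.59). None of these genes passed the edgeR test.

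**Figure D5:**
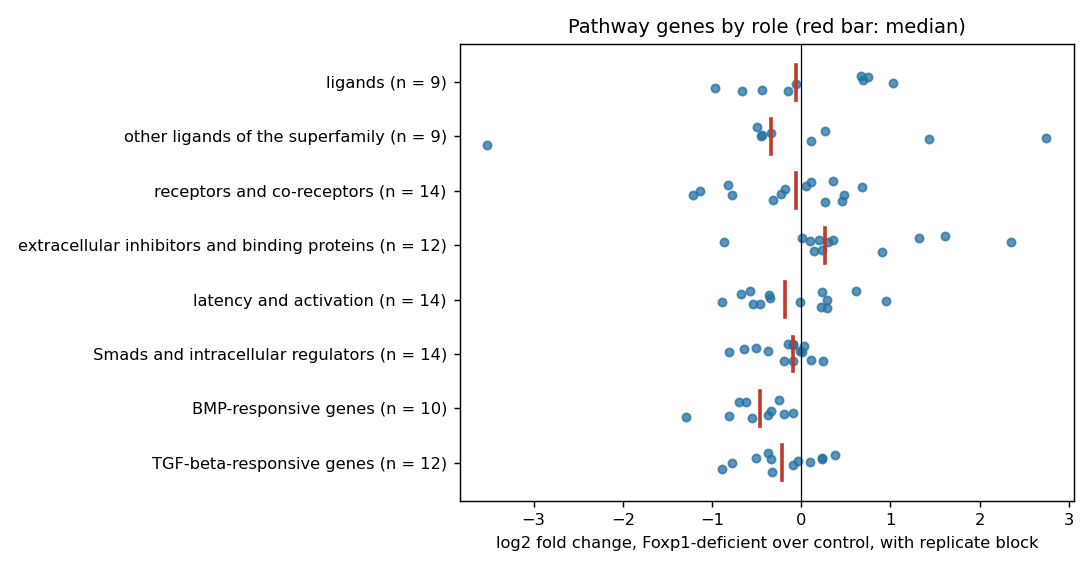
Log2 fold change of Foxp1-deficient over control, from edgeR with the replicate number as a block, with 1 point per tested gene of each pathway list and a red bar at the list's median. The 10 BMP-responsive genes lie below 0 (median -0.46), 11 of 12 inhibitors and binding proteins lie above 0 (median 0.26), and the other lists lie on both sides.

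Marker lists of other cell types also varied between the same libraries. The edgeR test on all 6 libraries called 0 of their genes, with or without the block. Over all genes tested, 46.4% were lower and 53.6% higher in the Foxp1-deficient group without a block. The 5 smooth muscle markers summed to 10262, 7162 and 5789 CPM in Foxp1-deficient libraries 1, 2 and 3, against 12795, 17698 and 10488 CPM in controls 1, 2 and 3, with 5 of 5 lower and a median log2 fold change of -0.997. These ranges were apart by library total and overlapped with TMM scaling, where Foxp1-deficient library 1 was at 9748 CPM and control 3 at 9249 CPM. DESeq2 with the replicate block called 1.31% of 12799 genes, among them Bmp4 and Tgfb3. It also called Acta2 and Myh11 of smooth muscle, Upk3b, Krt19, Upk1b and Msln of mesothelium, Lyz2 and Csf1r of macrophages, Wnt11, Dcn and Lrp2. The 6 mesothelial markers summed to between 3163 and 5485 CPM in Foxp1-deficient libraries and between 1996 and 2245 CPM in controls, with 5 of 6 higher. The 8 macrophage and leukocyte markers were all lower, with sums between 55.8 and 586 CPM in Foxp1-deficient libraries and between 310 and 1128 CPM in controls. The 5 ureteric bud tip markers summed to between 130 and 159 CPM in Foxp1-deficient libraries and between 201 and 234 CPM in controls, with 3 of 3 tested lower. Nearly all of these sums came from the 3 tested genes Wnt11, Etv4 and Etv5. Ret had at most 1.96 CPM and Gfra1 at most 1.32 CPM in any library, so the sums may not stand for bud tip cells. The stromal sum ran from 3436 to 22896 CPM in Foxp1-deficient libraries and from 6009 to 21904 CPM in controls, lowest in each group in the library numbered 2, as were Tgfb3, Tgfb2 and Inhba. The part of these cell types in the values of Bmp4, Tgfb3, the Id genes and the inhibitors was not tested.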

How the data were processed

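The values used were raw fragment counts per gene, deposited by the authors and made by featureCounts 1.5.1 on paired reads, exons summed by gene name, with version 86 of an mm10 annotation, per the file headers. No strand option was set, so opposite-strand genes that share exons cannot be told apart, and multi-mapping reads were not requested. The submitters' processing notes name STAR, Trimmomatic, FastQC, SAMtools, deepTools and DESeq2, with no role or version, and how reads were aligned is not given in the sources used here. Gene lengths deposited by the authors, in bases, were used for TPM. Of the table's columns of per-sample values, 6 were matched to libraries by name.

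Counts were tested across all genes with edgeR 4.0.16 (R 4.3.3): TMM factors, filterByExpr, the robust quasi-likelihood F test, two-sided, and Benjamini-Hochberg adjustment over 14311 genes with a threshold of 0.05. Bmp5 was removed by the filter. CPM of single libraries use the library total, and the mean ± SD use TMM scaling. Limits at 3 counts cover counting error only, because without molecular identifiers PCR copies count as separate reads. Alternatives were other size factors, other filters, DESeq2 1.42.0, limma-voom (limma 3.58.1), a replicate block and leaving out libraries. Figures were drawn with matplotlib 3.10.9.

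Deviations from the group means of equally numbered libraries correlated at r = 0.71, 0.68 and 0.72 over 14311 genes in pairs 1, 2 and 3, which was read as pairing by number. The labels state no pairing. The fits between replicate numbers without 1 library, and the directions of the BMP-responsive and inhibitor lists under 19 settings, and the overlap of groups with TMM scaling, were added after the data had been seen. Members and gene lists were chosen with earlier results of these data known. The rule for named genes takes all 10 ligands, Foxp1, from each pathway list the genes past the threshold or else up to 4 of lowest p, and for each ligand of at least 5 CPM the 2 genes of highest correlation among named genes averaging at least 10 CPM. The values of 1 gene taken by this rule are left out. Other genes, among them Cdh16, Gm15217 and marker genes, were named for a result they stand beside. Promoters came from a RefSeq table for GRCm38.p6, and no genome sequence was used.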

Additional observations from a re-analysis of the deposited data

How the results depend on the processing

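Bmp4, Tgfb3, Inhba and Bmp7 kept the sign of their log2 fold change under every alternative run, from -1.04 to -0.30 for Bmp4, -1.28 to -0.46 for Tgfb3, 0.47 to 1.74 for Inhba and 0.43 to 0.80 for Bmp7 when 1 library was left out. The other ligands changed sign with 1 library left out, from -0.20 to 1.32 for Bmp2, -0.62 to 0.44 for Bmp6, -0.59 to 0.54 for Inhbb, -0.35 to 0.11 for Tgfb1 and -0.62 to 0.75 for Tgfb2. With the replicate block Tgfb2 was at -0.061 in edgeR and -0.076 in DESeq2, and Inhbb at 0.75 and 1.09. limma-voom put Bmp2 at -0.21 and Bmp6 at 0.11 with quality weights, and Bmp6 at 0.027 with the replicate block. Without the libraries numbered 2, Bmp2 was at -0.14 and Bmp6 at 0.16, or -0.29 and 0.15 with the block. The cause of these changes was not tested.

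Between genotypes edgeR called 0 genes with and without the replicate block. DESeq2 called 6, DESeq2 with the replicate block 168, of them 2 ligands, limma-voom with the replicate block 4, and edgeR with the block and without the libraries numbered 2 called 29. Between replicate numbers, leaving out 1 library gave 2397 to 9562 genes, beside 4255 with all 6, and 1 to 8 ligands, beside 4 with all 6. Scaling by library totals gave 2 ligands and 4875 genes there, and leaving out both libraries numbered 2 gave 2 ligands and 2926 genes. With 1 library left out, 0 neighbouring ligand levels differed, where 5 libraries are too few for any to pass. Bmp5, at 3 counts in all, was below the floor in every library, and the reason for this was not tested. The design, with 3 libraries a group, leaves wide intervals for Bmp2, Inhbb and Inhba.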

Other observations

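Gdf6, a growth and differentiation factor gene outside the 10 ligands, exceeded Bmp4 per exon length in all libraries except those numbered 2. It had 273, 20.6 and 162 TPM in Foxp1-deficient libraries 1, 2 and 3, and 154, 28.5 and 117 TPM in controls 1, 2 and 3. Gdf6 was named after its values were seen. The type I BMP receptor gene Bmpr1a and the type II gene Bmpr2 were counted in every library, Bmpr1a at 256, 57.4 and 211 CPM in Foxp1-deficient libraries 1, 2 and 3, and at 251, 69.2 and 163 CPM in controls 1, 2 and 3. Bmpr2 had 157, 59.2 and 126 CPM in Foxp1-deficient libraries 1, 2 and 3, and 135, 66.7 and 108 CPM in controls 1, 2 and 3. Both receptors were lowest in each group in the library numbered 2, and both were named after their values were seen.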
